A study of Homo sapiens with 15 samples.

Results

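CXCL1, CXCL2, CXCL3 and CXCL5 are 4 chemokine genes that were followed here through every library of a doxycycline experiment in immortalized human astrocytes (IHA), a fetal line immortalized with SV40. They were taken by symbol, 4 of the 15230 genes listed in one deposited count table and 4 of the 12575 in the other, and they were selected on their higher levels at day 7 of doxycycline in earlier results of these data. Their day 7 against untreated values are therefore given as a description, with no test. Doxycycline at 1 µg/ml induced mutant IDH1, the R132H form by the series' design text. The 15 samples were 6 untreated, 4 at day 3 and 5 at day 7. A tag in the titles, b1 or b2, is treated here as a batch, although the labels do not say what it marks. Of the untreated samples 3 were b1 and 3 b2, of the day 7 samples 1 was b1 and 4 were b2, and all 4 day 3 samples were b2. The genotype label is wild-type IDH1 in every sample, the untreated ones included, the sources used here name no promoter for the induced gene, and no group had doxycycline without that gene. Doxycycline and the mutant enzyme cannot be told apart in this design. The untreated samples carry no day, so time in culture cannot be told apart from treatment either. No label says whether the libraries within a group came from separate cultures, and a p-value here reflects no more than the spread among them, which may be technical.

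Chemokines are small secreted proteins that guide moving leukocytes along a gradient. These 4 belong to the CXC chemokines that carry the glutamate-leucine-arginine (ELR) motif ahead of their first cysteines, act on the receptor CXCR2 and draw neutrophils out of the blood. In the brain, astrocytes make such chemokines after interleukin 1 or other inflammatory signals, largely through the transcription factor NF-kB, and their messenger RNAs are short-lived. CXCL1, CXCL2 and CXCL3 are the GRO chemokines, close copies of one another, and CXCL5 is a relative also known as ENA-78.

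The bases just ahead of each start site are shown because all 4 genes share an 11-base stretch there, while the remaining bases separate CXCL5 from the GRO genes. Each line gives the 200 bases before the RefSeq start on the gene's own strand (GRCh38.p14), 5′ to 3′, with the stretch GGGAATTTCCC, the longest that all 4 share and a form of the sequence that NF-kB binds, in capitals. CXCL1 is on the plus strand (chr4:73869193-73869392). CXCL2 (chr4:74099196-74099395), CXCL3 (chr4:74038690-74038889) and CXCL5 (chr4:73998678-73998877) are on the minus strand.
CXCL1: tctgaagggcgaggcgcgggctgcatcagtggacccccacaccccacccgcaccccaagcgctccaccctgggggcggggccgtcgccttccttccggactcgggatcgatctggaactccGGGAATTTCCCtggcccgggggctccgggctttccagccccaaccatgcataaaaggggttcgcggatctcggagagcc
CXCL2: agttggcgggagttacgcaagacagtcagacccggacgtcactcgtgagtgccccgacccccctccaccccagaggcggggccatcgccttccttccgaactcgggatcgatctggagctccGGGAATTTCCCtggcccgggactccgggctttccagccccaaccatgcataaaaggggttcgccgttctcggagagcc
CXCL3: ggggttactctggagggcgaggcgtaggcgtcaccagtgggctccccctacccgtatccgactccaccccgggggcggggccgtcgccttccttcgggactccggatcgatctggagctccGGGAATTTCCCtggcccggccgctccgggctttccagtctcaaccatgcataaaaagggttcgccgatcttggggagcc
CXCL5: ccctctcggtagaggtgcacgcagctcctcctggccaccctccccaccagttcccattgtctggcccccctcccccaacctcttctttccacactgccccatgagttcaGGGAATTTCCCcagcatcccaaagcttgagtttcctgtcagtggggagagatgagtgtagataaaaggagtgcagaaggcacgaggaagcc

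The stretch GGGAATTTCCC, searched on both strands, lay 79 to 69 bases before the start in CXCL1 and CXCL3, 78 to 68 before it in CXCL2 and 91 to 81 before it in CXCL5. It was found in 27 of 35116 RefSeq promoter windows of 300 bases (0.0769%), these 4 included, and its first 10 letters in 51 (0.145%). The stretch was read from the 4 sequences themselves, so its presence in all of them is no test. A looser NF-kB pattern of 10 letters, 3 of them free, was in 6.9% of the windows. In the members it matched inside that stretch on both strands, the 2 matches shifted by 1 base. The AP-1 letters TGANTCA (7.71% of windows) and TATAAA (11.5%) matched in none of the 4 windows. Of 2 further strings chosen after the sequences had been seen, ATAAAAG (4.66% of windows) was in CXCL1, CXCL2 and CXCL5. Its first base lay 30 or 31 bases before the start. At the same place CXCL3 reads ATAAAAA, which differs in the last letter alone. The other string, GGGCTTTCC (0.629%), was in CXCL1, CXCL2 and CXCL3. Over the 200 bases, CXCL1 had 83.0% identity with CXCL2 and 84.0% with CXCL3, and CXCL2 had 81.0% with CXCL3. CXCL5 had 59.5% to 62.5% identity with each of them. The alignments allowed gaps, and the identity that unrelated sequences would reach was not measured. The longest run shared by CXCL1 and CXCL2 was 42 bases, while CXCL5 shared at most 11 in a row with any of the others.

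The 4 genes lie within 229901 bases of chromosome 4, between 73869393 and 74099293 (GENCODE annotation on GRCh38), in the order CXCL1, CXCL5, CXCL3 and CXCL2. No annotated gene overlaps any of them. Because they are near copies, reads could in principle be shared between them. Of the 50-base windows of the last 500 transcript bases, from which a 3′-end method draws its reads, 10.2% of those of CXCL1 occur in CXCL2 and 10.2% of those of CXCL2 in CXCL1. For CXCL3 and CXCL5 the share found in any other gene was 0.0%. No label or file header used here states a read length. With windows of 35 bases CXCL1 and CXCL2 shared 16.3% and 4.51% of those of CXCL5 occurred in GLYR1, and with windows of 75 bases CXCL1 and CXCL2 shared 0.704%. The levels of CXCL1 and CXCL2 are to that extent less certain than those of the other two.

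Bulk MARS-seq counts 3′ ends of transcripts, with unique molecular identifiers (UMIs) that make each count 1 molecule whatever the length of the transcript. The day 7 table (untreated and day 7, b1 and b2) held 2573290 to 5567651 UMIs per library, and the day 3 and day 7 table (b2 alone) held 1816599 to 4656705. The second table counts 7 of the same b2 libraries again. There the members' counts were 0.99 to 1.0 times those of the first table for CXCL1, 1.0 to 1.07 for CXCL2, 0.845 to 1.06 for CXCL3 and 0.978 to 1.03 for CXCL5. IDH1 itself did not pass the test at day 7 (log2 change 0.22 ± 0.11 SE, adjusted p = 0.178 by edgeR). Nothing says which 3′ end the induced transcript carries, so this does not check the induction. Of 10 astrocyte markers 6 were listed in each table and GFAP, AQP4, ALDH1L1 and SLC1A2 were not. None of the 8 neutrophil markers was listed, where a listed gene has at least 6 UMIs in some library. Of the microglia and macrophage markers 3 of 10 were listed (CD68, CD14 and CSF1R), and AIF1, TYROBP, PTPRC and ITGAM were not. On the depth-scaled CPM, the 3 summed in the day 7 table to 41.5 to 44.7 CPM in untreated b2, 57.6 to 63.5 CPM in day 7 b2, 34.2 to 43.3 CPM in untreated b1 and 37.5 CPM in the day 7 b1 library. Counted again in the other table, the same 3 summed to 125.4 to 132.7 CPM in untreated b2, 116.0 to 132.4 CPM at day 3 and 156.6 to 176.55 CPM at day 7. Of 8 endothelial markers 3 were listed and PECAM1, CDH5 and VWF were not. The 3 summed to 71.6 to 73.8 CPM in untreated b1 and 106.0 CPM in day 7 b1, but to 51.2 to 64.1 CPM in untreated b2 and at most 53.3 CPM in day 7 b2. Of 8 fibroblast and pericyte markers 5 were listed and DCN and LUM were not. They summed to 933 to 1050 CPM in untreated b1 and 1051 CPM in day 7 b1, against 613 to 644 CPM in untreated b2 and 429 to 640 CPM in day 7 b2. In the day 7 table the endothelial sum was thus highest in the day 7 b1 library, where the 4 chemokines were highest too, and the fibroblast sum separated b1 from b2. In the other table, which holds no b1 library, the fibroblast sum was 984 to 1041 CPM in untreated b2 and 775 to 1005 CPM in day 7 b2. The b2 fibroblast sums thus depended on the table. In the day 7 table the astrocyte sum was 7052 to 8263 CPM in untreated b2 and 8221 to 9971 CPM in day 7 b2. In b1 it was 6581 to 7302 CPM untreated and 6826 CPM at day 7. Of 8 keratinocyte markers 4 were listed, with 236.0 to 249.6 CPM in untreated b2 and 249.7 to 268.3 CPM in day 7 b2. In b1 they summed to 272.8 to 298.5 CPM untreated and 307.6 CPM at day 7. Of all these markers edgeR called CD44, SOX9, CSF1R, EGFL7 and LAMB3 higher and TIE1, CSPG4 and THY1 lower at day 7. The part of these shifts in the chemokine values was not tested. In bulk RNA, fewer producing cells and less RNA per cell cannot be told apart.

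Whether the chemokines had risen by day 3 was asked in the b2 libraries, on CPM, the usual counts scaled to a common library total (here after TMM scaling). CXCL2 and CXCL3 rose 1.49-fold and 1.70-fold at day 3, and CXCL1 and CXCL5 did not pass the test. That test shares its untreated libraries with the contrast that picked the members and is not independent of the choice. CXCL2 stood at 35.7, 34.1 and 31.3 CPM in the untreated libraries and at 54.6, 40.6, 51.3 and 57.3 CPM at day 3. All 4 day 3 libraries were above all 3 untreated ones, and how many of all genes did the same was not counted. The log2 change of CXCL2 was 0.58 ± 0.13 (SE, edgeR adjusted p = 0.00612). CXCL3 stood at 9.22, 14.7 and 16.1 CPM untreated and at 15.8, 22.7, 25.2 and 24.9 CPM at day 3. Here the groups overlapped, since the lowest day 3 library (b2-9, 28 UMIs) lay below the highest untreated one. CXCL3 rose by 0.76 ± 0.19 on the log2 scale (SE, edgeR adjusted p = 0.0234). That call rested on single libraries and was lost without untreated b2-1 (0.55, edgeR adjusted p = 0.155), without untreated b2-2 (0.89, edgeR adjusted p = 0.0519), and without day 3 b2-10, b2-11 or b2-12 (0.70 to 0.76, edgeR adjusted p = 0.0751 to 0.0892).

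CXCL1, the most abundant of the 4, stood at 249.85, 260.6 and 259.6 CPM untreated and at 281.1, 282.6, 289.2 and 346.7 CPM at day 3. The day 3 libraries were all higher, but by little except in b2-12. Its log2 change of 0.23 ± 0.08 (SE) did not pass (edgeR adjusted p = 0.139), and was 0.15 without b2-12. CXCL5 stood at 30.6, 29.8 and 23.9 CPM untreated and at 32.1, 28.5, 24.8 and 24.9 CPM at day 3, fully overlapping. Its log2 change was -0.06 ± 0.13 (SE, edgeR adjusted p = 0.878), on 55 to 78 UMIs per day 3 library. In the authors' deposited table, which holds their own DESeq2 comparison, the day 3 changes of CXCL1, CXCL2, CXCL3 and CXCL5 were 0.23, 0.58, 0.76 and -0.06 on the log2 scale once the sign is turned to day 3 over untreated, with adjusted p-values of 0.289, 0.00923, 0.0309 and 0.962. In this comparison edgeR called 372 of 10586 genes (3.51%) at an adjusted p under 0.05, and 195 (1.84%) were higher at day 3, among them 2 of the 4 members. The untreated b2 libraries are also part of the contrast for which the members were picked, so the test is not independent of that choice.

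The members were selected on high day 7 levels, so their day 3 to day 7 differences are also given as a description, with no test. All 4 genes were higher at day 7 than at day 3, and CXCL5 had the largest difference of the 4. CXCL5 stood at 81.8, 71.55, 87.2 and 79.5 CPM at day 7, against at most 32.1 CPM at day 3. The log2 difference of CXCL5 was 1.55 ± 0.11 (SE). CXCL1 stood at 648.4, 507.8, 595.2 and 593.5 CPM at day 7, a log2 difference of 0.97 ± 0.08 (SE). CXCL3 stood at 42.5, 46.9, 58.1 and 52.4 CPM, about 2.24-fold its day 3 level (log2 difference 1.17 ± 0.15 SE). CXCL2 had the smallest difference. It stood at 84.4, 68.4, 69.0 and 75.03 CPM, higher by 0.55 ± 0.11 on the log2 scale (SE). For each gene every day 7 library was above every day 3 library, a separation that was not counted over all genes. In this comparison 537 genes (5.07%) were called, and 292 (2.76%) were higher at day 7, among them all 4 members. Nothing is read from that count, because the same day 7 libraries picked the members.

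**Figure D1:**
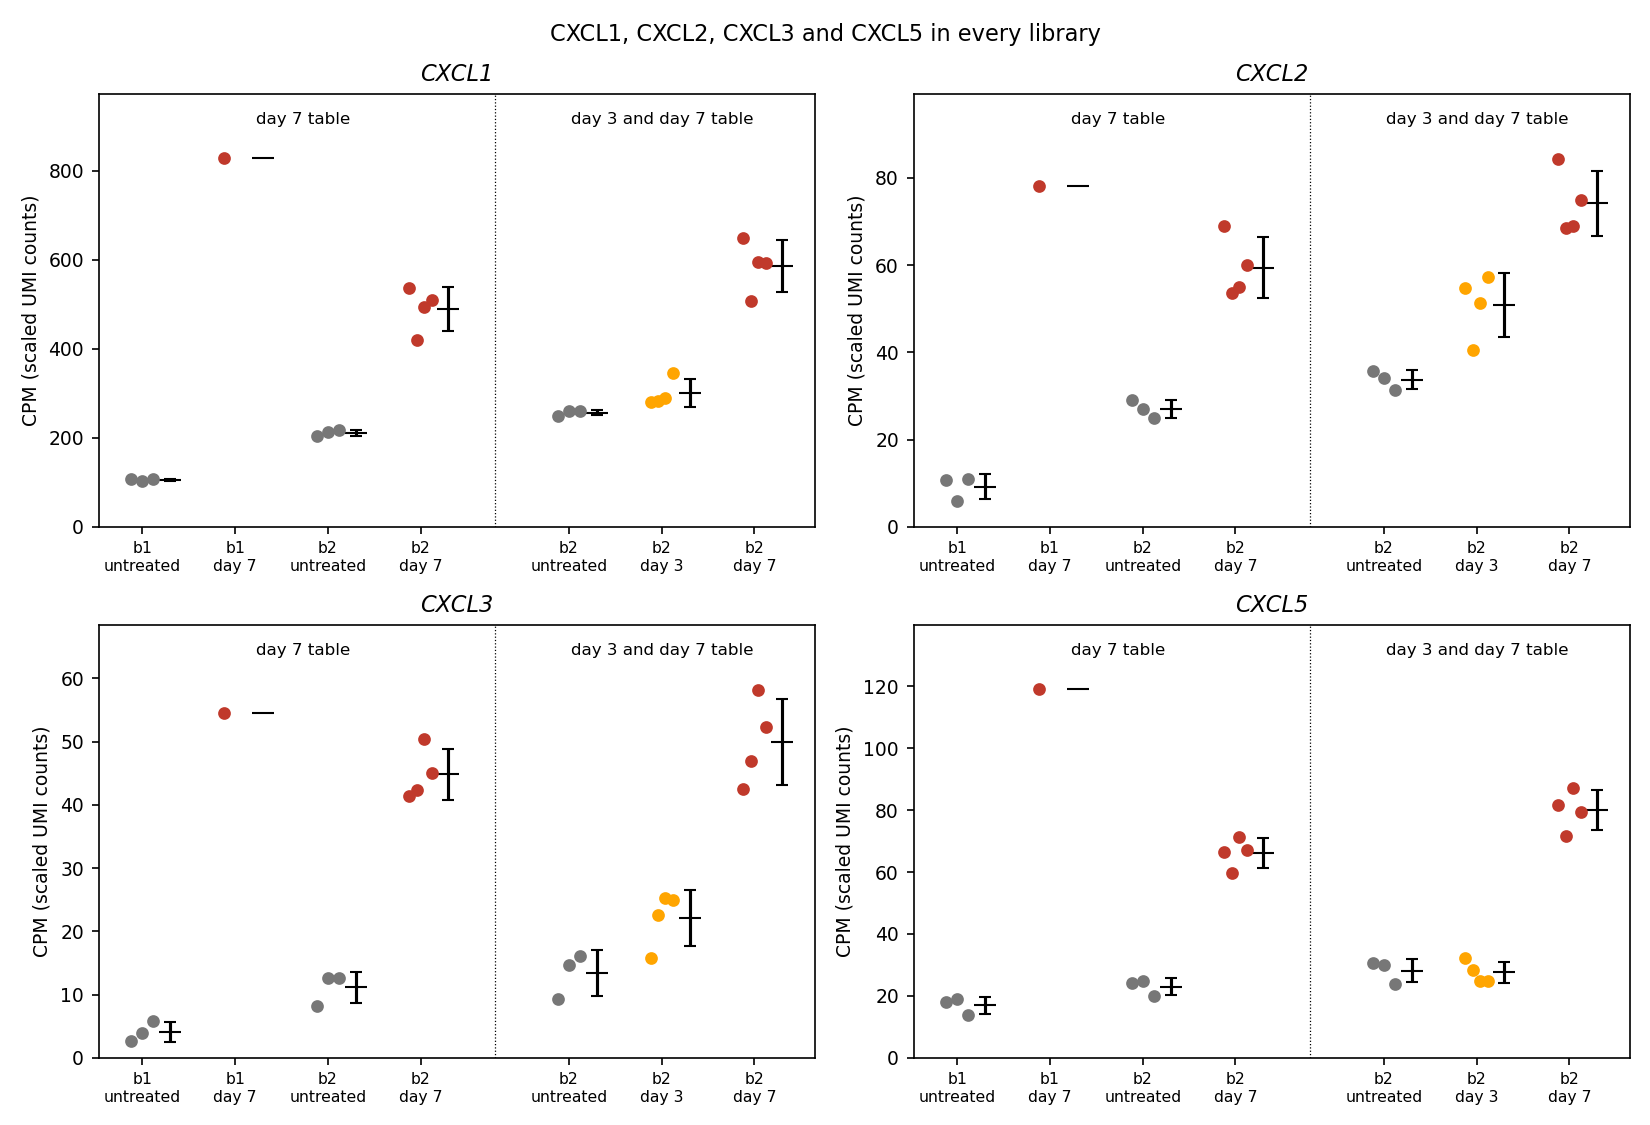
CPM (TMM-scaled UMI counts) of the 4 genes, 1 panel a gene, with 1 point per library and the group mean ± SD beside the points (no SD for the single b1 day 7 library). The 2 deposited tables are shown on either side of the dotted line and were scaled separately. CXCL5 stayed between 24.8 and 32.1 CPM at day 3 and reached 71.55 to 87.2 CPM at day 7, while CXCL2 was already above its untreated range at day 3.

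The 4 genes were compared in how much of their day 7 level they had reached by day 3. The log2 ratio of 2 members within each library was used. After adjustment over the 12 ratio comparisons no ratio could have passed at these group sizes, whatever the values. The adjusted test therefore cannot decide whether the genes differed, and the ratios are given as a description. Between untreated and day 3 the CXCL2 to CXCL5 ratio moved by 0.61 (exact two-sided permutation p = 0.0571, n = 3 and n = 4) and the CXCL1 to CXCL2 ratio by -0.36 (exact two-sided permutation p = 0.0571). That p is the smallest these group sizes allow. Between day 3 and day 7 the CXCL2 to CXCL5 ratio moved back by -0.98, the CXCL1 to CXCL5 ratio by -0.55 and the CXCL1 to CXCL2 ratio by 0.42. Each of these 3 had an exact two-sided permutation p of 0.0286, the smallest that n = 4 and n = 4 can give. The day 3 to day 7 ratios also use the day 7 libraries that picked the members. Over the 12 ratio comparisons the lowest Benjamini-Hochberg adjusted p was 0.114, from which nothing is read. The CXCL1 to CXCL3 ratio moved by -0.50 up to day 3 and by -0.20 after it (exact permutation p = 0.171 and 0.314).

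Day 7 against untreated is the contrast that chose the members, and its size depended on the batch. In untreated b2 the day 7 table gave CXCL1 204.15, 213.7 and 217.2 CPM, and in day 7 b2 536.6, 420.9, 493.95 and 510.35 CPM. In b1 CXCL1 stood at 106.8, 102.9 and 106.9 CPM untreated and at 829.7 CPM in the single day 7 library. CXCL1 thus started lower in b1 and ended higher there than in any b2 library. CXCL2 went from 29.1, 27.0 and 24.85 CPM to 69.0, 53.6, 55.0 and 60.0 CPM in b2. In b1 CXCL2 went from 10.8, 5.85 and 10.9 CPM to 78.1 CPM. The low untreated library (b1-2) held only 15 UMIs of CXCL2. CXCL3 went from 8.25, 12.6 and 12.6 CPM to 41.4, 42.35, 50.4 and 45.1 CPM in b2. In b1 CXCL3 went from 2.70, 3.90 and 5.77 CPM, on 10 to 26 UMIs, to 54.6 CPM. It was the least abundant of the 4 in every untreated group. CXCL5 went from 24.3, 24.96 and 19.8 CPM to 66.6, 59.6, 71.2 and 67.1 CPM in b2. In b1 CXCL5 went from 17.9, 19.1 and 13.75 CPM to 119.15 CPM, its highest value in any library. In both batches no untreated library overlapped a day 7 library for any of the 4 genes. How many of all genes separated likewise was not counted, and in b1 the day 7 side is a single library. Nothing is read from this separation, because this contrast chose the members.

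Within b2 the log2 changes were 1.21 ± 0.08 for CXCL1, 1.13 ± 0.12 for CXCL2, 2.02 ± 0.16 for CXCL3 and 1.50 ± 0.12 for CXCL5 (SE). Within b1 they were 2.97 ± 0.11, 3.02 ± 0.20, 3.69 ± 0.26 and 2.84 ± 0.16 in the same order (SE). The single b1 day 7 library gives no spread of its own there and was assumed to vary like the other groups. The b1 change exceeded the b2 change by 1.76 ± 0.13 on the log2 scale for CXCL1 and by 1.90 ± 0.24 for CXCL2 (SE). For CXCL3 the excess was 1.68 ± 0.32 and for CXCL5 1.34 ± 0.21 (SE). No test is given for these 4 differences, which rest on 1 b1 day 7 library and on the values that picked the members. Batch and library cannot be told apart there. Over all genes the same edgeR interaction called 329 of 12449 (2.64%), 140 (1.12%) with the higher change in b1, and all 4 members were among the latter, from which nothing is read. With a batch term over both batches the log2 changes were 1.79 ± 0.29, 1.66 ± 0.31, 2.49 ± 0.26 and 1.95 ± 0.21 (SE). Without the b1 day 7 library they were 1.22, 1.14, 2.03 and 1.52.

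Without doxycycline the members were already higher in b2 than in b1. CXCL2 was 2.82-fold and CXCL3 2.635-fold higher in untreated b2, with log2 differences of 1.50 ± 0.17 and 1.40 ± 0.25 (SE, edgeR adjusted p = 7.98e-08 and 4.07e-05). CXCL1 differed by 1.00 ± 0.09 (SE, edgeR adjusted p = 6.82e-10). For CXCL5 the difference was 0.49 ± 0.15 (SE, edgeR adjusted p = 0.00752), with 13.75 to 19.1 CPM in b1 and 19.8 to 24.96 CPM in b2. The CXCL5 call was lost without untreated b1-3 (0.34, edgeR adjusted p = 0.0892). It was also lost in a fit of the libraries numbered 1 and 2 with their number as a block (0.40, edgeR adjusted p = 0.0878). No untreated b1 library overlapped an untreated b2 library for any member, though how many of all genes separated likewise was not counted. All untreated libraries are also part of the contrast that picked the members, so these tests are not independent of that choice. Of all genes 5806 (46.6%) were called between the untreated batches, 23.4% higher in b2, so the batches differed across much of the transcriptome and a call in this comparison is common.

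**Figure D2:**
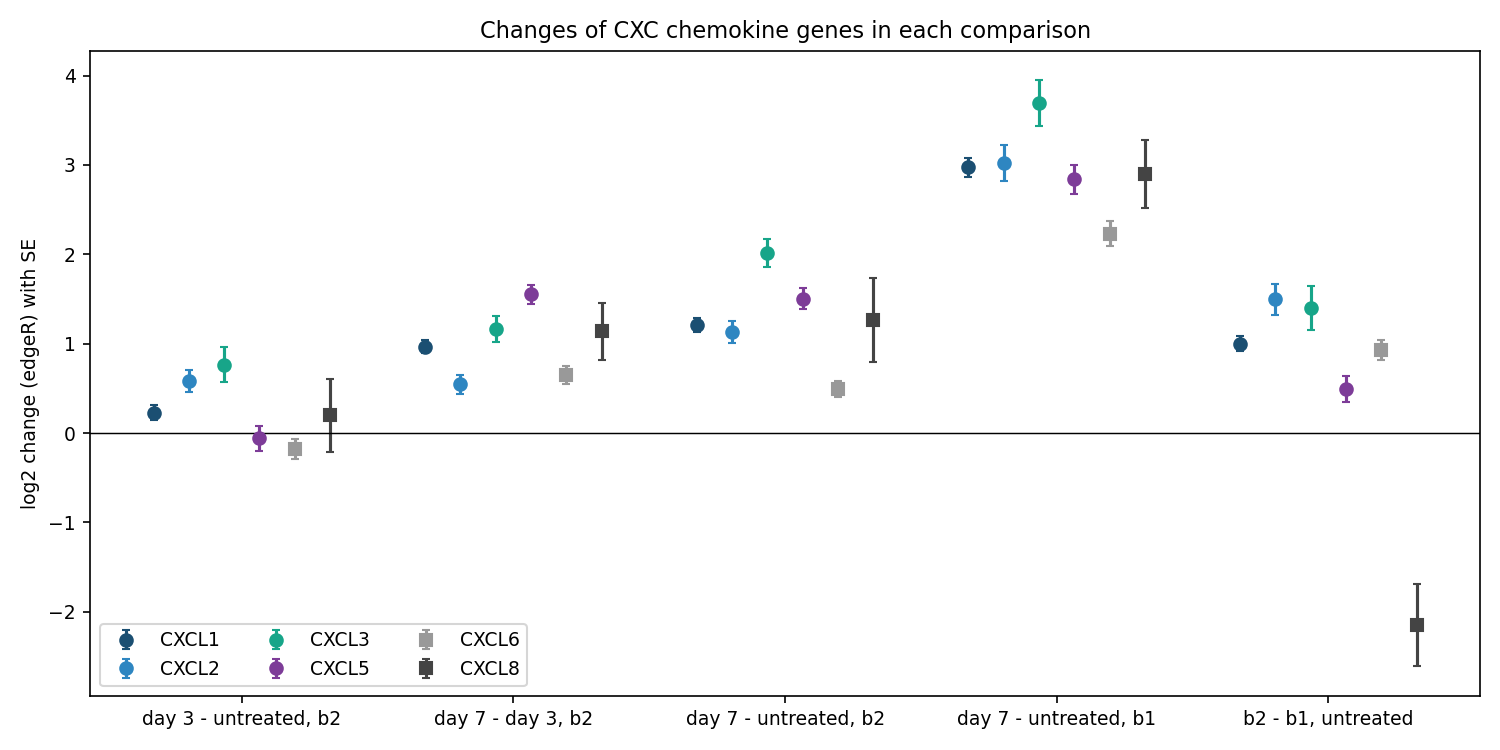
Log2 changes with their standard errors (edgeR) of the 4 genes (circles) and of CXCL6 and CXCL8 (squares) in 5 comparisons, where day 7 in b1 rests on 1 library. CXCL5 lies at -0.06 at day 3 and is the highest from day 3 to day 7 at 1.55, and every member lies above its b2 change in b1.

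The make-up of the 4 transcripts moved less than their sum. Together they gave 338 to 619 UMIs in the untreated b1 libraries, 762 to 1527 in untreated b2, 2001 to 3843 in day 7 b2 and 2714 in the day 7 b1 library. CXCL1 made up most of that sum in every library, at most 79.1% of it. CXCL5 made up 10.0% to 14.5% in untreated b1, 7.22% to 9.13% in untreated b2 and 5.48% to 8.37% at day 3. At day 7 CXCL5 was back at 9.33% to 10.6% in b2 of the day 7 table and at 11.0% in b1. CXCL2 had its largest share at day 3, 10.8% to 14.2%, against 9.46% to 11.0% in untreated and 8.52% to 9.85% in day 7 libraries of the same table. CXCL3 went from 2.83% to 4.86% untreated through 4.11% to 6.46% at day 3 to 4.96% to 7.18% at day 7. These shares compare molecules, not lengths.

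**Figure D3:**
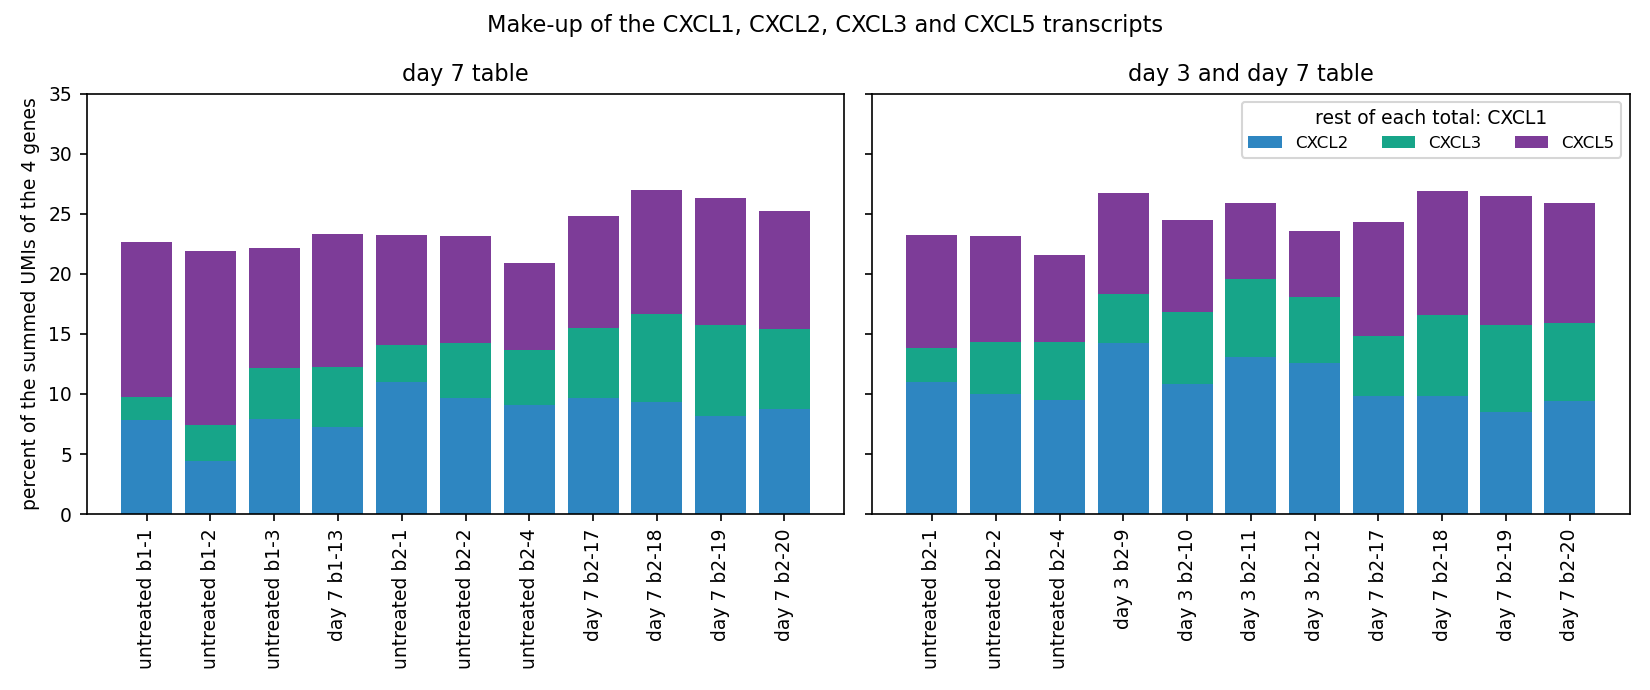
Percent of the summed UMIs of the 4 genes that CXCL2, CXCL3 and CXCL5 contributed in each library, with CXCL1 as the rest and the axis ending at 35%. CXCL2 takes its largest shares, 10.8% to 14.2%, in the 4 day 3 libraries.

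Of the other ELR chemokines, CXCL6 and CXCL8 were listed and PPBP was not. CXCL6, a CXCR1 and CXCR2 ligand whose promoter window also holds GGGAATTTCCC (90 to 80 bases before the start), had 69.8 to 80.7 CPM in untreated b2 and 93.1 to 116.8 CPM in day 7 b2. In b1 it went from 37.0 to 44.0 CPM up to 185.3 CPM. CXCL6 followed the members in starting lower and ending higher in b1. CXCL6 changed by 0.49 ± 0.09 within b2 and by 2.23 ± 0.14 within b1 on the log2 scale, a difference of 1.73 ± 0.17 (SE) that rests on the 1 b1 day 7 library. With the batch term CXCL6 rose by 1.04 ± 0.28 (SE, edgeR adjusted p = 0.0419), a call lost without any one of the 6 untreated libraries or without day 7 b2-17 or b2-20 (edgeR adjusted p up to 0.0743). By day 3 CXCL6 had not passed the test (-0.18 ± 0.11 SE on the log2 scale, edgeR adjusted p = 0.405), whereas it rose by 0.65 ± 0.10 from then to day 7 (SE, edgeR adjusted p = 4.48e-05).

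CXCL8, interleukin 8, differed from the members in the untreated cells. It had 11.3 to 21.8 CPM in untreated b1 but 2.88 to 4.37 CPM in untreated b2, on 8 to 18 UMIs. CXCL8 was thus lower in b2 by a log2 difference of -2.15 ± 0.46 (SE, edgeR adjusted p = 0.00334), where the 4 members and CXCL6 were higher. At day 7 CXCL8 rose by 2.29 ± 0.39 (SE, edgeR adjusted p = 0.00441), with 4.36 to 14.2 CPM in b2 and 116.8 CPM in b1, and without the b1 day 7 library the change was 1.28 (edgeR adjusted p = 0.0786). Its promoter window held TGANTCA and TATAAA, which matched in no member, and had no match to GGGAATTTCCC. Whether the window holds another form of the sequence that NF-kB binds was not examined. The receptors CXCR1 and CXCR2 were not listed, nor were ACKR1, ACKR2 and CXCR4. The sixth gene of that list, the scavenger ACKR3, did not pass at day 7 (log2 change -0.39 ± 0.29 SE, edgeR adjusted p = 0.402).

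Within 500 kb of the members GENCODE places 26 other genes, 13 of them protein coding, and 5 were tested in the day 7 table. Apart from CXCL6 and CXCL8, the tested ones were AFP, MTHFD2L and AREG. AFP, alpha-fetoprotein, rose by 1.17 ± 0.28 at day 7 on the log2 scale (SE, edgeR adjusted p = 0.00563), on 5 to 36 UMIs per library. It lost its call with no batch term (edgeR adjusted p = 0.0759). Within b2 AFP changed by 1.36 ± 0.32 and within b1 by 0.75 ± 0.51 (SE). Within b2 CXCL8 changed by 1.27 ± 0.47, CXCL1 by 1.21 ± 0.08, CXCL2 by 1.13 ± 0.12 and CXCL6 by 0.49 ± 0.09 (SE). Whether AFP differed from these was not tested. MTHFD2L, a mitochondrial folate enzyme and the nearest gene past CXCL2, had log2 changes of 0.43 (b2) and 0.41 (b1) in the day 7 table, a difference of -0.02 ± 0.24 (SE). Its counts depended on the table. The same untreated b2 libraries held 59 to 103 UMIs of MTHFD2L in the day 7 table (mean 20.9 CPM) but 6 to 8 in the other (mean 2.16 CPM), where day 7 had a mean of 1.89 CPM and the gene was too low to be tested. AREG, amphiregulin, did not pass the test at day 7 (log2 change 0.31 ± 0.19 SE, edgeR adjusted p = 0.304).

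**Figure D4:**
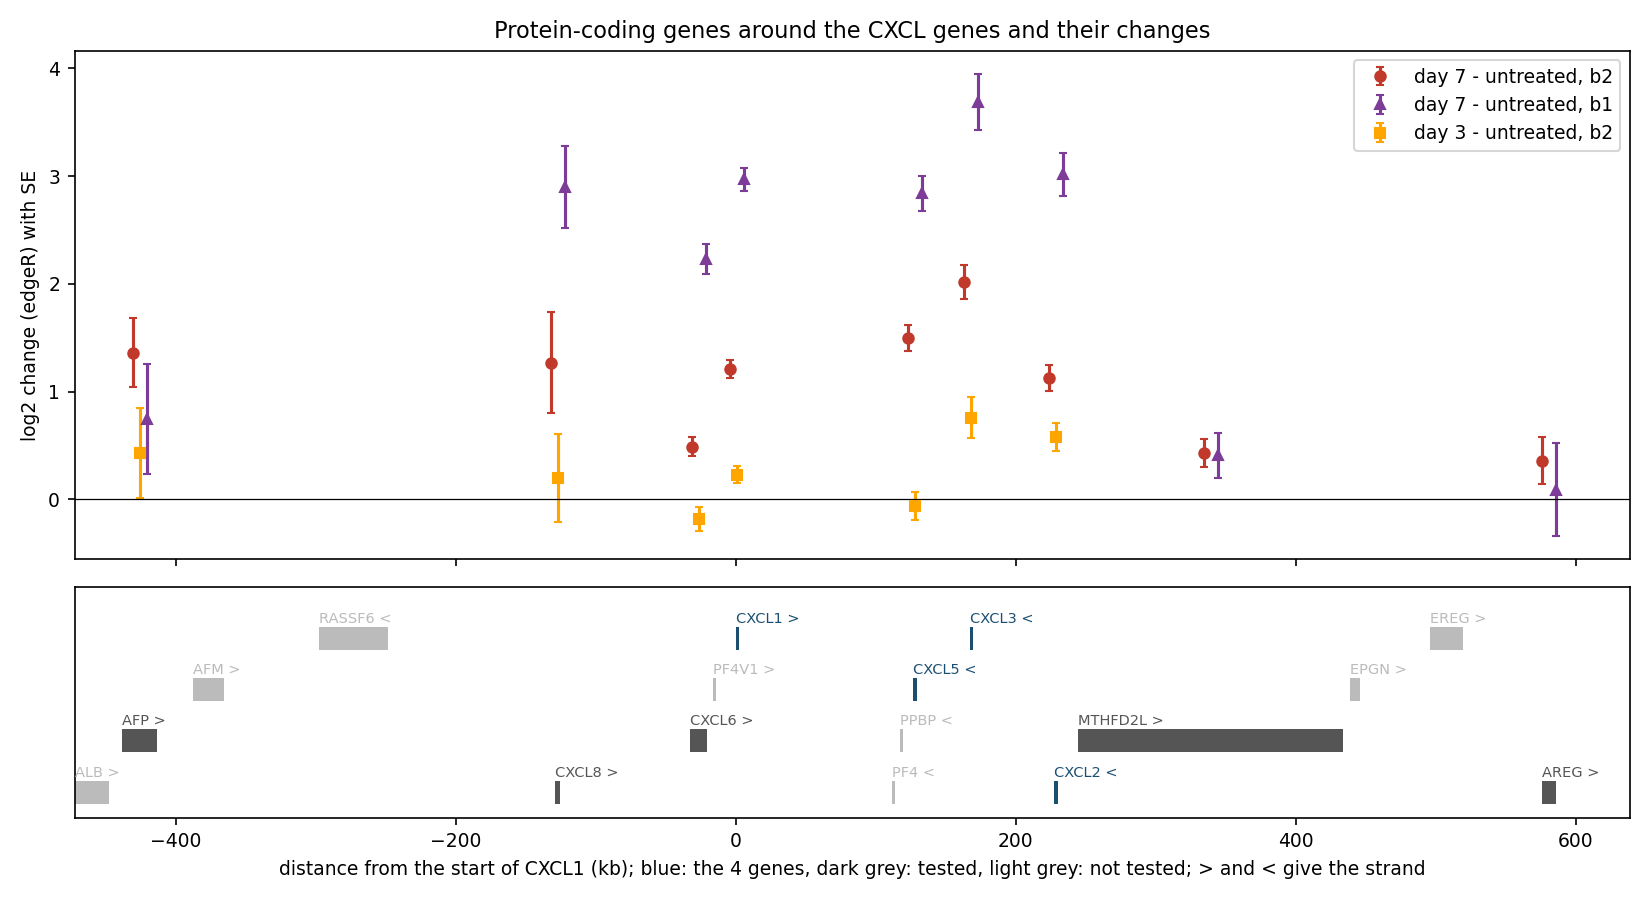
Upper panel, log2 changes with standard errors (edgeR) of the tested protein-coding genes around the members, placed by distance from the start of CXCL1 in kb, with the 3 comparisons shifted sideways for reading. Lower panel, the annotated protein-coding genes with their strand, where CXCL1, CXCL2, CXCL3, CXCL5, CXCL6 and CXCL8 have day 7 changes of 2.23 to 3.69 in b1 and AFP, MTHFD2L and AREG of 0.09 to 0.75. The b1 values rest on 1 day 7 library. In b2 the chemokines ranged from 0.49 (CXCL6) to 2.02 (CXCL3), with AFP at 1.36, MTHFD2L at 0.43 and AREG at 0.36.

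Genes that act above or beside the chemokines were read from lists made for this account. The lists were chosen with earlier results of these data known, so their counts are a description and no test. At day 7 edgeR called 1955 of 12449 genes (15.7%), 8.43% higher and 7.28% lower, and the median log2 change of all genes was -0.02. Of 19 tested genes of interleukin 1 and interleukin 17 signalling, 3 rose and none fell (median 0.08). IL1B, interleukin 1 beta, an inducer of all 4 chemokines, rose by 1.90 ± 0.13 (SE, edgeR adjusted p = 1.21e-06), and at day 3 by 0.37 ± 0.07 (SE, edgeR adjusted p = 0.00363). Its day 7 change was 1.63 within b2 and 2.49 within b1, the latter with a single day 7 library. IRAK2, a kinase of the interleukin 1 receptor, rose by 0.38 ± 0.09, and TRAF3IP2, the adaptor of the interleukin 17 receptor, by 0.53 ± 0.13 (SE, edgeR adjusted p = 0.00473 and 0.00891), the latter lost with no batch term (edgeR adjusted p = 0.0541). Of 16 tested NF-kB subunits and inhibitors 4 rose at day 7, or 3 without the b1 day 7 library, and none fell (median 0.14). They were inhibitors or modulators: TNFAIP3 (A20) rose by 0.57 ± 0.10 and NFKBIB by 0.54 ± 0.09 (SE, edgeR adjusted p = 0.00038 and 0.00016), and NFKBIZ and TNIP1 were the other two. At day 3, where 3.51% of all genes were called and 1.84% were higher, 2 of 16 were called, and 0 when any one untreated or day 3 library was left out.

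Of 11 tested AP-1, CEBP and EGR factors 4 rose and 1 fell at day 7 (median 0.19), and 3 fell without the b1 day 7 library. FOSB rose by 1.39 ± 0.28 and JUN by 0.31 ± 0.07 (SE, edgeR adjusted p = 0.00184 and 0.00233). The FOSB call was lost on the other table's b2 counts (0.93, edgeR adjusted p = 0.118), and the JUN call with no batch term (0.31, edgeR adjusted p = 0.0509). None of the 11 was called at day 3. Of 12 tested factors that degrade or stabilise AU-rich chemokine messages 2 rose and none fell (median 0.01). ZC3H12A (regnase-1), an endonuclease that cleaves inflammatory messages, rose by 1.04 ± 0.17 (SE, edgeR adjusted p = 0.000372), or by 0.84 with no batch term, where it did not pass (edgeR adjusted p = 0.171). Its change was 0.70 within b2 and 1.63 within b1, the latter with a single day 7 library. Of 12 tested proteoglycans and proteases that hold or trim chemokines 3 rose and 1 fell (median 0.01), or 2 and 2 without the b1 day 7 library. DPP4, a protease that clips chemokine ends, rose by 0.92 ± 0.19 and the proteoglycan SDC1 by 0.28 ± 0.07 (SE, edgeR adjusted p = 0.00206 and 0.00519). The SDC1 call was lost with no batch term (0.23, edgeR adjusted p = 0.206) and on the other table's b2 counts (0.19, edgeR adjusted p = 0.0507).

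Of 12 tested genes of neutrophil growth, adhesion and the acute phase, 8 rose and 1 fell at day 7 (median 0.94). Without the b1 day 7 library 8 rose and 2 fell. This list too was chosen with earlier results known, so nothing is read from its count. CSF3, the growth factor of neutrophils, rose by 2.80 ± 0.33, complement C3 by 2.23 ± 0.25 and the prostaglandin synthase PTGS2 by 1.61 ± 0.36 (SE, edgeR adjusted p = 2.10e-05, 4.91e-05 and 0.00404). The size of the CSF3 change depended on single libraries. It was 1.95 without the b1 day 7 library and 3.41 without untreated b2-2, and was 1.94 within b2 against 4.48 within b1. The C3 change was 1.75 within b2 against 3.36 within b1, and that of PTGS2 was 1.73 against 1.10. With all libraries VCAM1 was the gene of this list that fell at day 7. At day 3, 4 of the tested genes rose and 1 fell, where 1.84% of all genes were higher. With 1 untreated or day 3 library left out, 3 or 4 rose and 0 or 1 fell. PTGS2 rose by 2.04 ± 0.43, CSF3 by 1.56 ± 0.27 and IL11 by 0.60 ± 0.10 (SE, edgeR adjusted p = 0.00481, 0.000737 and 0.000984), while C3 had a log2 change of -0.10 ± 0.24. Of 6 tested chemokines outside the ELR group 2 rose and 1 fell at day 7 (median -0.05). CCL7, a monocyte chemokine, rose by 1.96 ± 0.25 and CXCL12 by 0.65 ± 0.07 (SE, edgeR adjusted p = 1.17e-05 and 2.33e-06). Both had risen by day 3, CCL7 by 1.57 ± 0.31 and CXCL12 by 0.94 ± 0.07 (SE, edgeR adjusted p = 0.00281 and 1.07e-10). CCL7 and CXCL12 thus had most or all of their change by day 3, where CXCL1 and CXCL5 had not passed the test. Day 3 and day 7 against untreated share the untreated b2 libraries.

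The genes whose profile lay nearest to the mean of the 4 members were found by the root mean square difference of log2 CPM, each gene set to its own untreated level. Over the 11 libraries of the day 7 table the nearest were IL1B (0.22), C3 (0.29), CSF3 (0.39), CCL7 (0.43) and C15orf48 (0.46). The members themselves lay at 0.17 (CXCL1), 0.20 (CXCL5), 0.28 (CXCL2) and 0.42 (CXCL3) from their own mean, which they help to set. Over the 11 libraries of the other table the nearest were TMEM158 (0.14), IL1B (0.14), KRTAP2-3 (0.18), PGF (0.18) and AGPAT9 (0.19). In that table CXCL1 lay at 0.18, CXCL2 at 0.25, CXCL5 at 0.29 and CXCL3 at 0.42 (ranks 4, 12, 19 and 62 of 10586 genes). CXCL2, CXCL5 and CXCL3 were thus further from their own mean than the genes named, and that mean stands poorly for them. IL1B was the one gene among the nearest 5 of both tables.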

How the data were processed

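Bulk MARS-seq measured 3′-end transcripts in 15 samples. UMI counts came as 2 tables deposited by the authors, made per the submitters' processing notes with bcl2fastq, cutadapt, STAR 2.4.2a, HTSeq and DESeq2 on hg38, with no parameters given. The 55 columns of other per-sample values were not used. The authors' own log2 fold changes and adjusted p-values, from DESeq2 per the file headers, are given once. Of the untreated columns with day 3, 2 have descriptions shared by b1 and b2 samples, and the column names as a set placed them in b2. By counts over 11481 genes, 7 of 7 shared libraries matched themselves best.

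filterByExpr left 12449 and 10586 genes to test. After TMM scaling, genes were tested with the robust quasi-likelihood test of edgeR 4.0.16 (R 4.3.3), with Benjamini-Hochberg adjustment over all genes tested. The day 7 table was fitted with a batch term and again as group means, and the other table as group means alone. The threshold was 0.05. All 4 members passed the filter in both tables. Day 7 against untreated had a batch term, and the batch and interaction comparisons used group means. SE is the log2 change divided by the root of the F statistic. log2 CPM used a prior count of 2. Alternatives were DESeq2 1.42.0, limma-voom (limma 3.58.1), other scalings and filters, no batch term, b2 alone, the other table's counts, a replicate block and leaving out each library. The fits were tested on simulated data.

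The members and the 9 gene lists were chosen with earlier results of these data known. The rule for named genes took the members, IDH1, up to 3 called genes per list at day 7 and at day 3 by size of change, the 5 nearest in profile per table and genes tested within 500 kb. Of the list genes only those whose call held with each library left out are given with values, except CXCL6 and CXCL8. TNIP1, VCAM1 and ACKR3 are named outside it, after their values were seen. Promoters are RefSeq's (GRCh38.p14, 4 of 4 members matched) and transcripts GENCODE's. The planned comparison of protein sequences was not made. Figures used matplotlib 3.10.9, alignments Biopython 1.88.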

Additional observations from a re-analysis of the deposited data

Results flagged for a closer look

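CXCL1 in day 3 b2-12 stood at 346.7 CPM, far from the other 3 day 3 libraries (281.1 to 289.2 CPM). It was the 1 outlying library among 12 groups of 4 checked over the members and tables, and chance flags about 1 in 20 groups.

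The day 7 change was larger in b1 than in b2 by 1.76 for CXCL1, 1.90 for CXCL2, 1.68 for CXCL3 and 1.34 for CXCL5 on the log2 scale. They are listed because edgeR's interaction term passed its threshold, but that term borrows the spread of other groups for the single b1 day 7 library and uses the values that picked the members, so it is no support for a batch difference. Batch and library cannot be told apart. The direction was the same under the alternatives run, with ranges of 1.68 to 1.79, 1.71 to 2.02, 1.41 to 2.08 and 1.19 to 1.41.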

How the results depend on the processing

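No member changed direction in a called comparison. CXCL2 at day 3 stayed past the threshold in every alternative run. CXCL3 at day 3 lost its call with limma-voom (0.79, adjusted p = 0.0554) and ranged from 0.55 to 0.89 with 1 library left out, 5 of which ended the call. CXCL5 between untreated batches ranged from 0.34 to 0.57 with 1 library left out. The numbers 1 and 2 that both untreated groups carry did not pair the libraries (r = -0.012 and 0.002 of deviations over 12040 genes), and with them as a replicate block CXCL5 differed by 0.40 (adjusted p = 0.0878), the one member call it changed. The day 7 changes of CXCL1, CXCL2, CXCL3 and CXCL5 were 1.23, 1.15, 2.03 and 1.52 in b2 alone and 1.19, 1.13, 1.93 and 1.49 with the other table's counts. With 1 library left out they ranged from 1.22 to 1.89, 1.14 to 1.81, 2.03 to 2.75 and 1.52 to 2.10, the lowest without the b1 day 7 library. Genes called numbered 316 at day 7 with no batch term and 154 in the interaction with limma-voom. With 1 library left out they ranged from 191 to 578 at day 3 and from 197 to 684 in the interaction, the highest without day 7 b2-17 in both. Library size alone moved the share of calls that rose to 31.8% at day 7, 35% at day 3 and 26.3% in the interaction, and limma-voom moved the last to 56.5%. At day 3 the untreated and day 3 libraries held 28 to 66 UMIs of CXCL3, which limits its precision.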
